A study of Homo sapiens with 6 samples.

Results

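The carnitine shuttle genes are SLC22A5, CPT1A, CPT1C, SLC25A20, CPT2, CRAT and CROT, taken by symbol from the count table. All 7 were among its 14803 genes and all 7 passed the filter on low counts, as did 14785 genes in all. RNA was sequenced from the MCF-12A line, human breast epithelium that is not tumorigenic and that the study describes as estrogen receptor negative, after 24 h of treatment in complete mammary epithelial medium. A group of 3 libraries received octanoic acid (OA, given as sodium octanoate), an eight-carbon saturated fatty acid, and a group of 3 received its vehicle, phosphate-buffered saline (PBS). Both groups are the same line with no other agent named. No source used here states the concentration for this line.

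Long-chain fatty acids cannot cross the inner mitochondrial membrane as acyl-CoA and are carried as carnitine esters. Carnitine enters the cell through a plasma membrane transporter, CPT1 at the outer mitochondrial membrane transfers the acyl group from CoA to carnitine, a translocase exchanges acylcarnitine for free carnitine across the inner membrane, and CPT2 restores the acyl-CoA in the matrix. CRAT and CROT handle shorter acyl groups, in mitochondria and peroxisomes respectively. Medium-chain fatty acids such as octanoate can largely bypass CPT1, since they enter the mitochondrion freely and are activated inside it.

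The steps of the shuttle did not move together. After OA, transcripts of CPT1C, CPT1A and CRAT rose and those of CROT fell under every scaling tried. The calls of SLC25A20, which did not pass the test, and of CPT2 and SLC22A5, which fell slightly, depended on how libraries were scaled. By edgeR's quasi-likelihood test at a false discovery rate of 0.01, 3 members were higher, 3 lower and 1 did not pass. With upper quartile scaling 4 members were higher and 1 lower, beside 7857 higher and 4687 lower of all 14785 genes tested. With library totals only 4 were higher and 1 lower, beside 8223 and 4341. The first counts, 3 higher and 3 lower, have to be read against a broad response. In the same fit 84.5% of all genes tested were called, 43.3% higher and 41.1% lower. In 88.8% of genes the 3 libraries of the groups did not overlap, as in 6 of the 7 members. The median log2 fold change was -0.04 over the members and 0.03 over all genes tested. The former is the value of SLC25A20 and was 0.0055 without vehicle replicate 3. The labels do not state whether replicates were separate cultures. The p-values therefore reflect spread among these libraries alone, and that spread may be technical. In such bulk RNA, fewer cells of a type and less RNA per cell cannot be told apart.

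Levels are given as CPM, counts scaled to a common library size by TMM, a scaling that takes most genes as unchanged. The vehicle libraries held 43049972 to 59935521 counts each, and the OA libraries 47508208 to 49585010. All 7 fixed mammary epithelial markers were in the table, among them KRT5 and TP63, and summed to between 6378 and 6583 CPM in vehicle, against 3934 to 4062 CPM in OA, with 3 of them higher and 4 lower, and their part in the results below was not tested. Estrogen receptor transcripts (ESR1) were at 59 to 87 counts in vehicle and 22 to 48 in OA. Defining markers of leukocytes (PTPRC) and adipocytes (ADIPOQ) were not in the count table, so they were not analysed. Of the markers of other cell types that were tested, the adipocyte gene PLIN1 rose from 1, 0 and 1 counts to 37, 27 and 28 counts. The muscle gene TNNI3, the only 1 of 7 in the table, went from 24 to 48 counts to 525 to 579. The leukocyte gene CD14, the only 1 of 5 in the table, went from 92 to 164 counts to 272 to 323. For 3 fibroblast genes, 2 of them called higher, the summed level went from 61.1 to 76.3 CPM to between 102 and 104 CPM. Their part in the results was not tested. Of 15 hepatocyte markers 13 were in the table and 10 were higher in OA. Vehicle libraries had a summed level of these of 6.69 to 11.3 CPM. OA replicate 1 had 12.5, replicate 2 had 31.1 and replicate 3 had 95.1 CPM, so OA replicate 3 stood apart.

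The bases upstream of the start sites are shown for the member with the largest rise, the one with the largest fall, and the main CPT1 gene, because these 3 carry the contrasts below. Each is the 250 bases before a RefSeq start site (GRCh38.p14), read 5′ to 3′ on the gene's strand. Capitals mark matches on either strand to the sequence CCAAT, called the CCAAT box, and to the sequence GGGCGG, called the GC box. AGGTCA, the half-site of nuclear receptors such as the PPARs, TATAAA and the E-box CACGTG were searched in the same way. No matches overlapped one another.
CPT1C, chr19:49690866-49691115, plus strand: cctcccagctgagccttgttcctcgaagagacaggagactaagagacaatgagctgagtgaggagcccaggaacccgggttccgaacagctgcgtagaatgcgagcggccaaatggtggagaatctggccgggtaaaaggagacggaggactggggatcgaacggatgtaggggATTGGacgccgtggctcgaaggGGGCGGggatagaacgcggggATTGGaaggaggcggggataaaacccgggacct
CPT1A, chr11:68844278-68844527, minus strand: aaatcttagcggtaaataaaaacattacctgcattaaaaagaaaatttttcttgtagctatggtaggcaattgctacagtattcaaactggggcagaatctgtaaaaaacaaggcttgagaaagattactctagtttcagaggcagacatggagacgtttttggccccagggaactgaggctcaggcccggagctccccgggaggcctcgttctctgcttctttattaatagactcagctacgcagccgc
CROT, chr7:87345414-87345663, plus strand: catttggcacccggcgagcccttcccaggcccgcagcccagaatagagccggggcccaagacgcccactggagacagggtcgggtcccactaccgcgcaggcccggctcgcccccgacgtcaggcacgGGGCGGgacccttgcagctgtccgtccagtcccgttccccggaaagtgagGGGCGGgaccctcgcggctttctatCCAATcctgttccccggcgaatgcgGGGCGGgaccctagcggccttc

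In the CPT1C window the CCAAT box stood on the opposite strand at 76 and 33 bases before the start, with a GC box between them at 54. CROT had GC boxes at 122, 72 and 22 bases and a CCAAT box at 47 bases before the start. None of the 5 motifs was found in the CPT1A window, which had a G and C content of 44.4%, against 60.0% for CPT1C and 70.8% for CROT. Its RefSeq start lies 2346 bases upstream of the first base of CPT1A in the count table, and which start these cells use was not tested. In CPT1C and CROT the RefSeq start lay 8 and 29 bases inside the gene model of the count table. Of the other members, CPT2, SLC25A20 and SLC22A5 held GC boxes and no other motif, and no window is given for CRAT. Over 35116 RefSeq windows of the same length, 42.6% held GGGCGG, 32.0% CCAAT, 12.1% AGGTCA, 10.7% TATAAA and 6.34% CACGTG. These matches are a description of the letters and not of factor binding.

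CPT1A encodes the liver-type carnitine palmitoyltransferase 1, the malonyl-CoA-sensitive enzyme that controls entry of long-chain acyl groups (hg38 as in all positions below, chromosome 11, 68754620 to 68841931, minus strand, 20 exon blocks). It had 80.9, 77.1 and 76.1 CPM in vehicle replicates 1, 2 and 3. In OA it had 171.5, 187.6 and 169.0 CPM. The lowest OA library was therefore above 2 times the highest vehicle library. The fold change was 2.25 (95% interval 2.13 to 2.38, log2 fold change 1.17, SE 0.04, edgeR adjusted p = 2.16e-16).

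CPT1C encodes the brain-type member of the family, an endoplasmic reticulum protein with little transferase activity (chromosome 19, 49691108 to 49713731, plus strand, 22 exon blocks). Its vehicle libraries held 183, 173 and 159 counts, or 3.39, 3.81 and 4.06 CPM. Its OA libraries held 1390, 1362 and 1249 counts, or 25.6, 24.9 and 24.0 CPM. All OA values lay far above all vehicle values, a 6.66-fold rise (95% interval 6.00 to 7.39, log2 SE 0.07, edgeR adjusted p = 5.06e-18). Only 6.84% of all genes tested had a larger log2 fold change, against 19.9% for CPT1A and 22.7% for CRAT. Among fixed neuronal markers, 6 of 7 were higher in OA, against 43.3% of all genes tested. Of 13 hepatocyte markers in the table, 10 were higher as well, but unevenly among libraries. Their summed level was 12.5, 31.1 and 95.1 CPM in OA replicates 1, 2 and 3, against 6.69 to 11.3 CPM in vehicle. The summed level of the neuronal markers went from 4.43 to 4.85 CPM in vehicle to 41.0 to 42.8 CPM in OA. Their part in the rise of CPT1C was not tested.

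On the per-length scale (RPKM, reads per kilobase of gene length scaled for library size) CPT1C was still the lesser CPT1 gene. Vehicle cells had 1.19 ± 0.11 RPKM of CPT1C and 14.2 ± 0.46 RPKM of CPT1A (SD, n = 3). OA cells had 7.88 ± 0.26 RPKM of CPT1C and 32.1 ± 1.85 RPKM of CPT1A. Each SD is the spread among libraries under TMM and leaves out the choice of scaling. CPT1C made up 6.80%, 7.93% and 8.49% of the reads per base of this pair of genes in vehicle and 20.6%, 18.7% and 19.8% in OA. A ratio of 2 genes within a library does not depend on library scaling, and 4 such ratios were compared. The ratio of CPT1C to CPT1A was 0.0835 in vehicle and 0.246 in OA (geometric means), a 2.94-fold difference with no overlap between groups. The exact two-sided permutation p was 0.10 for each of the 4 ratios (adjusted p = 0.10), the smallest that 3 against 3 libraries can give.

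SLC25A20 encodes the carnitine-acylcarnitine translocase of the inner membrane (chromosome 3, 48856923 to 48898993, minus strand, 9 exon blocks). Vehicle libraries had 13.9, 12.9 and 14.8 CPM, and OA libraries 13.4, 13.7 and 13.2 CPM. The groups overlapped, and the fold change was 0.973 with a 95% interval of 0.888 to 1.07 (edgeR adjusted p = 0.566). With library totals only, the log2 fold change became 0.25 and passed the threshold (edgeR adjusted p = 0.00137), as it did with upper quartile scaling (0.19, edgeR adjusted p = 0.00968). Relative to CPT1A the translocase was lower in OA: the ratio of CPT1A to SLC25A20 went from 2.01, 2.06 and 1.78 to 4.40, 4.72 and 4.42, a 2.32-fold difference (permutation p as above).

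CPT2, the inner membrane transferase that re-forms acyl-CoA (chromosome 1, 53196429 to 53214197, plus strand, 5 exon blocks), had 46.8, 47.6 and 45.4 CPM in vehicle. In OA it had 41.2, 42.3 and 40.5 CPM. The groups did not overlap, and CPT2 fell to 0.887 of vehicle (log2 fold change -0.17, SE 0.04, edgeR adjusted p = 0.000323), but its sign turned with upper quartile scaling (0.05) and with library totals only (0.11), and neither passed the threshold. The ratio of CPT1A to CPT2 needs no scaling. It was 0.9748, 0.915 and 0.947 in vehicle and 2.349, 2.504 and 2.351 in OA (permutation p as above), so the transferases flanking the translocase had near-equal reads per base in vehicle and unequal ones in OA. An exon of CPT2 shares 98 bases with C1orf123 on the opposite strand, which fell by 0.86 on the log2 scale. In the GENCODE annotation, 919 bases of CPT2 exons also lie opposite a gene with no symbol there, and 34 bases of CRAT exons lie opposite another. No source used here states whether counting used strand, so the share of such reads in the CPT2 count is unknown.

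SLC22A5, the sodium-dependent carnitine transporter of the plasma membrane also called OCTN2 (chromosome 5, 132369709 to 132395614, plus strand, 11 exon blocks), had 41.7, 39.8 and 38.2 CPM in vehicle. It had 32.7, 33.5 and 35.9 CPM in OA, just below the vehicle range. It fell to 0.852 of vehicle (log2 fold change -0.23, SE 0.05, edgeR adjusted p = 0.000104), a call lost with upper quartile scaling (-0.0033) and with library totals only (0.05). Its exons share 73 bases with MIR3936HG on the opposite strand in the count table, and 327 bases in the GENCODE annotation. MIR3936HG had 50 to 138 counts a library and rose by 0.76 on the log2 scale.

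**Figure D1:**
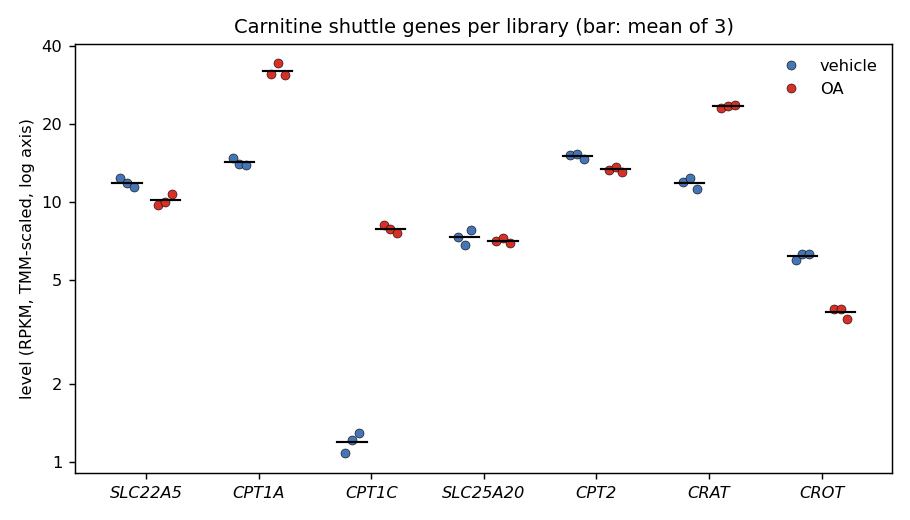
Level of each carnitine shuttle gene in each library (RPKM, TMM-scaled, log axis), with vehicle in blue, OA in red and a bar at the mean of 3 libraries. CPT1C rose from 1.19 to 7.88 RPKM and CROT fell from 6.21 to 3.76 RPKM, while the points of SLC25A20 overlapped between groups.

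The acyltransferases for shorter chains went opposite ways. CRAT, the carnitine acetyltransferase that buffers acetyl-CoA against carnitine in mitochondria (chromosome 9, 129094794 to 129110798, minus strand, 15 exon blocks), had 37.7, 39.0 and 35.5 CPM in vehicle. It had 72.6, 74.0 and 74.6 CPM in OA, with a tight range that lay wholly above vehicle. The rise was 1.97-fold (95% interval 1.86 to 2.08, log2 SE 0.04, edgeR adjusted p = 3.74e-15). CROT, the peroxisomal carnitine octanoyltransferase, which makes carnitine esters of medium-chain acyl groups (chromosome 7, 87345635 to 87399796, plus strand, 19 exon blocks), had 24.4, 25.9 and 26.0 CPM in vehicle. In OA it had 15.9, 15.8 and 14.5 CPM, all below the vehicle libraries. CROT fell to 0.607 of vehicle (95% interval 0.562 to 0.655, log2 fold change -0.72, SE 0.05, edgeR adjusted p = 8.20e-11), and 20.1% of all genes tested had a lower log2 fold change. The ratio of CROT to CRAT was 0.498, 0.511 and 0.562 in vehicle and 0.168, 0.164 and 0.150 in OA, so it fell to 30.7% of its vehicle value (permutation p as above).

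**Figure D2:**
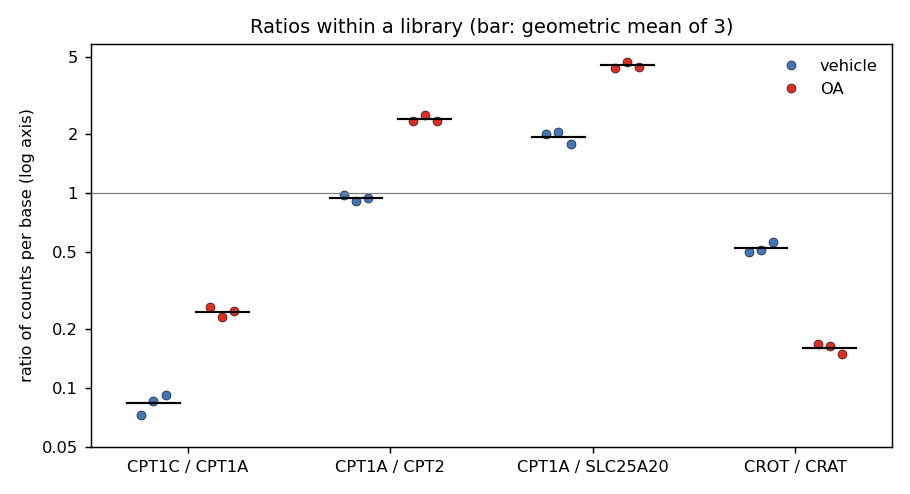
Ratio of counts per base of gene length for 4 pairs of shuttle genes in each library (log axis), with a bar at the geometric mean of 3 libraries and a grey line at equal levels. The ratio of CPT1A to CPT2 stood near 1 in vehicle and between 2.349 and 2.504 in OA, and that of CROT to CRAT was lower in all OA libraries.

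The order of the levels was rearranged. In vehicle, CPT2 (15.1 RPKM) and CPT1A (14.2 RPKM) led and their libraries overlapped, so their order is not settled. SLC22A5 and CRAT (both 11.9 RPKM) overlapped as well, followed by SLC25A20 (7.31 RPKM), CROT (6.21 RPKM) and CPT1C (1.19 RPKM), which were separate. In OA no neighbours in the order overlapped. CPT1A (32.1 RPKM) came first, then CRAT (23.4 RPKM), CPT2 (13.4 RPKM), SLC22A5 (10.2 RPKM), CPT1C (7.88 RPKM), SLC25A20 (7.11 RPKM) and CROT (3.76 RPKM). CPT1A supplied 20.7% to 21.5% of the summed RPKM of the 7 genes in vehicle and 31.9% to 34.1% in OA, and CROT went from 8.68% to 9.51% down to 3.68% to 4.01%.

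The scaling of libraries moved all genes together. Over all genes the median log2 fold change was 0.03 with TMM, 0.02 with DESeq2-type size factors, 0.26 with upper quartile scaling and 0.32 with library totals only. A scaling adds nearly the same amount to every gene and to that median, so each member's distance from the median is nearly fixed by construction. This distance is therefore no check on the calls. CPT2 lay 0.21 and SLC22A5 0.26 to 0.27 log2 units below the median, and SLC25A20 0.07 below, under all 4 scalings. CPT1C lay 2.70, CPT1A 1.14 and CRAT 0.94 above it, and CROT 0.76 below. The TMM log2 fold changes of CPT2, SLC22A5 and SLC25A20 were smaller than the shift of all genes between TMM and library totals only.

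**Figure D3:**
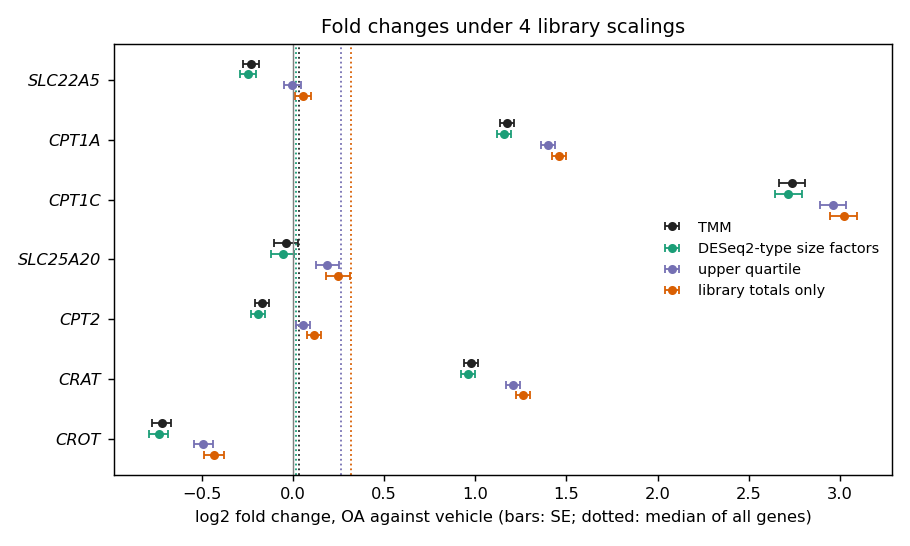
Log2 fold change of each shuttle gene, OA against vehicle, under 4 library scalings (points; bars are the SE), with a dotted line at the median of all genes for each. CPT1A, CPT1C and CRAT stood right of 0 and CROT left of 0 under each scaling, while SLC22A5, CPT2 and SLC25A20 crossed it.

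Hepatocyte markers were lowest in OA replicate 1 among the OA libraries (ALB at 32 counts, against 578 and 2427 in the others). An alternative chosen after these counts were seen set OA replicate 1 alone against the vehicle libraries, whose spread that fit uses. Log2 fold changes were then 1.13 for CPT1A, 2.77 for CPT1C, 0.95 for CRAT and -0.69 for CROT. They were -0.19 for CPT2, -0.05 for SLC25A20 and -0.30 for SLC22A5. The part of hepatocyte RNA in the values of the full OA group was not tested further.

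The genes nearest in pattern were sought over the 6 libraries among 10965 genes with a mean of at least 5 CPM, by the distance between log2 CPM values centred on their means. Nearest to CPT1C were FAM196B (distance 0.115, 6.61-fold higher), FAM110B (0.152, 6.45-fold) and ALOXE3 (0.154, 6.78-fold), an epidermal lipoxygenase gene. Nearest to CROT were KITLG (0.042), which encodes stem cell factor, the mitochondrial nuclease gene MGME1 (0.043) and ZNF180 (0.052), at 0.614, 0.595 and 0.616 of vehicle. With 2 groups of 3 libraries such likeness is mostly a like fold change.

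Supply of carnitine and control of CPT1 changed gene by gene. The fixed lists that follow were described by counts and medians, against 43.3% higher and 41.1% lower over all genes. Of 3 carnitine synthesis genes 2 were tested. ALDH9A1, an aldehyde dehydrogenase of the pathway, fell (log2 fold change -0.29, SE 0.03), a call lost with upper quartile scaling (-0.06) and with library totals only (-0.0026), and TMLHE, the enzyme of its opening step, did not pass (0.16). TMLHE was called higher with upper quartile scaling (0.39), with library totals only (0.45) and at a false discovery rate of 0.05. TMLHE, SLC22A4 and MLYCD are named after their values were seen. Of 5 other carnitine transporters 3 were tested, of which 1 rose, 1 fell and 1 did not pass. SLC16A9, a carnitine efflux transporter gene, rose 13.4-fold, from 58, 71 and 57 counts in vehicle to 1004, 1010 and 907 in OA (edgeR adjusted p = 8.57e-18). SLC22A4, the OCTN1 gene next in family to SLC22A5, did not pass (0.10) but was called higher with upper quartile scaling (0.32) and with library totals only (0.38). SLC25A29, a mitochondrial carrier gene, was at -0.26, a call lost with upper quartile scaling (-0.04) and with library totals only (0.02), and with OA replicate 1 alone (-0.22). Of 4 genes that make or remove malonyl-CoA or pass it on, 1 rose, 2 fell and 1 did not pass. ACACB, the mitochondria-bound acetyl-CoA carboxylase whose product inhibits CPT1, rose 1.69-fold. ACACA, the cytosolic carboxylase, fell to 0.706 of vehicle, a call lost with upper quartile scaling (-0.27), with library totals only (-0.22) and with OA replicate 1 alone (-0.39). The mitochondrial transacylase gene MCAT fell to 0.393, and MLYCD, which degrades malonyl-CoA, did not pass (0.07) but was called higher under the same pair of scalings (0.30 and 0.36).

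Acyl-CoA synthetases, which activate fatty acids of long and shorter chains to acyl-CoA, had the highest median of the 8 lists. Of 22 listed 14 were tested, of which 10 rose, 2 fell and 2 did not pass, with a median log2 fold change of 1.39. The long-chain synthetase genes ACSL1 (93.8 to 280.0 CPM) and ACSL3 (240.0 to 553.5 CPM) rose, and SLC27A6, a fatty acid transport protein gene, rose from 12, 5 and 7 counts to 603, 555 and 540. ACSM3 and ACSF2, medium-chain synthetase genes named after their values were seen, rose 3.71-fold from 0.826 CPM and 2.03-fold from 7.07 CPM. Of 9 thioesterases, which undo that activation, 4 rose, 3 fell and 2 did not pass, with ACOT13 up 2.24-fold and ACOT9 and THEM4 down to 0.587 and 0.618. Their median log2 fold change was -0.08, and it was 0.07 without vehicle replicate 1, -0.22 without vehicle replicate 2, -0.14 without OA replicate 1, -0.13 without OA replicate 3 and 0.0037 without OA replicate 2.

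Enzymes beyond the shuttle split. Of 17 mitochondrial beta-oxidation genes 5 rose, 8 fell and 4 did not pass (median -0.12). The counts were 8 higher and 7 lower with upper quartile scaling (median 0.11) and 9 and 7 with library totals only (median 0.17). Of all 14785 genes tested, upper quartile scaling called 7857 higher and 4687 lower. Library totals only called 8223 higher and 4341 lower. ACAD9, a dehydrogenase needed for assembly of complex I, fell to 0.323, the hydratase gene ECHS1 to 0.517 and the electron transfer flavoprotein gene ETFA to 0.598. Among genes named after their values were seen, ACADVL, the very-long-chain dehydrogenase that acts on what CPT2 delivers, rose 1.49-fold, and the medium-chain dehydrogenase gene ACADM fell to 0.828 of vehicle, a call lost with upper quartile scaling (-0.05) and with library totals only (0.01). Of 13 peroxisomal genes 5 rose and 5 fell. With upper quartile scaling 6 rose and 3 fell, and with library totals only 7 rose and 3 fell. Without OA replicate 2 only 3 rose, and 4 rose in some other alternatives, such as DESeq2 and the replicate block. The median log2 fold change of the peroxisomal genes was -0.01, from -0.04 to -0.015 with single libraries left out. It was 0.21 with upper quartile scaling and 0.27 with library totals only. PHYH, a branched-chain hydroxylase, rose 3.01-fold, while the peroxisomal transporter gene ABCD3 and the thiolase gene ACAA1 fell to 0.609 and 0.668.

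Among regulators, PPARA, a nuclear receptor known to induce CPT1A and other oxidation genes in liver, rose 4.01-fold, from 663, 564 and 528 counts to 2681, 2893 and 2634 (edgeR adjusted p = 1.72e-18). Its coactivator gene PPARGC1A rose 9.97-fold from 36, 19 and 17 counts to 277, 274 and 284, and PPARG rose 1.77-fold. RXRA, the partner receptor of the PPARs, and the coactivator gene PPARGC1B, both named after their values were seen, fell to 0.701 (264 to 185 CPM) and 0.614 of vehicle (40.9 to 25.1 CPM). In all, 5 of 9 regulators rose, 3 fell and 1 did not pass (median 0.25).

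**Figure D4:**
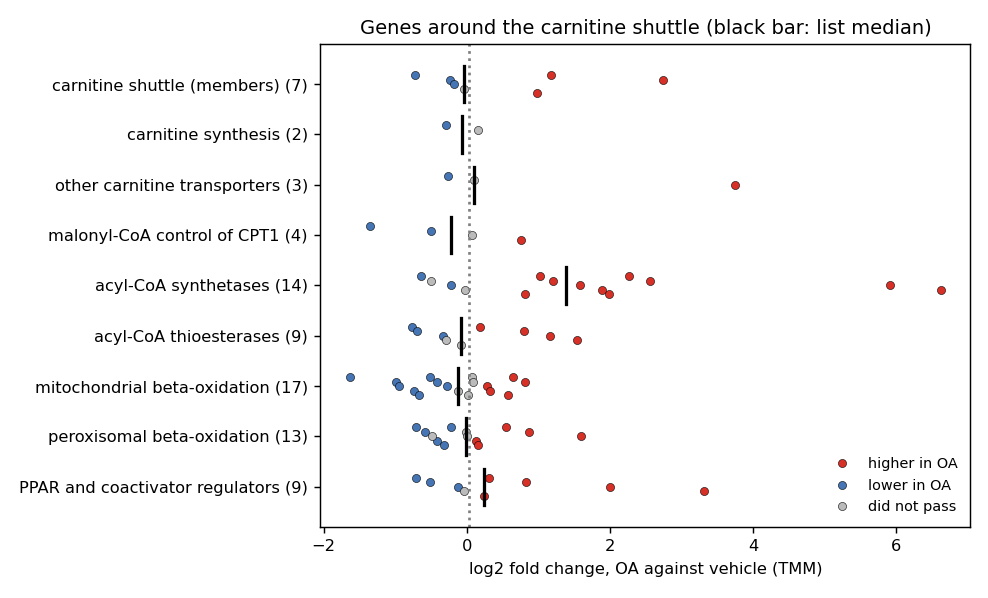
Log2 fold change of each tested gene in the shuttle and in 8 lists of genes around it (number tested in brackets), coloured by the call at a false discovery rate of 0.01, with a black bar at the list median and a dotted line at the median of all genes. The acyl-CoA synthetases had a median of 1.39, and the other medians lay between -0.21 and 0.25.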

How the data were processed

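RNA-seq of MCF-12A cells was analysed from the authors' table of raw counts per gene, deposited without normalization, with gene length in bases beside them. Per the labels and the study's methods, reads were aligned to hg38 with STAR 2.5, low-quality and multi-mapped reads were excluded, and genes were counted with featureCounts 1.5.1. The sources used here differ on single-read or paired-end layout. The lowest total of a gene in the table was 14. Groups were taken from the sample labels. All per-sample columns were used.

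Counts were fitted in R 4.3.3 with edgeR 4.0.16 (TMM scaling, filterByExpr, which removed 18 genes, two-sided quasi-likelihood test, Benjamini-Hochberg adjustment over all genes, false discovery rate 0.01). A likelihood ratio test in edgeR, the study's own choice, served as an alternative. The SE was the log2 fold change divided by the square root of F. CPM are TMM-scaled, and RPKM are CPM per kilobase of the deposited length. Log2 CPM used a prior count of 2. Library pairs within a group differed beyond counting noise (chi-square per degree of freedom at least 2.73). The median SE over all genes was 0.053. The steps were tested on simulated data in which few genes changed, unlike here, so that test does not bear on the choice of scaling.

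Members and lists were chosen with earlier results of these data known. Genes named were all members, the 3 called genes of each list with the lowest p among those averaging 1 CPM or more (and the most abundant where fewer were called), and the 3 nearest genes of the largest rise and fall. Alternatives were other scalings and filters, DESeq2 1.42.0, a replicate block, limma-voom 3.58.1, omission of each library, omission of the 20 most abundant genes and mitochondrial RNA, and a false discovery rate of 0.05. Sequences are from RefSeq (GRCh38.p14), with windows for 6 of 7 members.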

Additional observations from a re-analysis of the deposited data

How the results depend on the processing

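Over 18 alternatives, the log2 fold changes of CPT1A (1.12 to 1.46), CPT1C (2.66 to 3.02), CRAT (0.94 to 1.26) and CROT (-0.75 to -0.44) kept their sign and stayed past the threshold. With upper quartile scaling the log2 fold change became 0.054 for CPT2, 0.19 for SLC25A20 and -0.0033 for SLC22A5. With library totals only it became 0.11 for CPT2, 0.25 for SLC25A20 and 0.055 for SLC22A5. SLC25A20 was also positive without vehicle replicate 3; with single libraries left out it ranged from -0.087 to 0.0055. Adjusted p over the alternatives ran from 2.97e-05 to 0.183 for CPT2, from 0.00137 to 0.939 for SLC25A20 and from 2.60e-06 to 0.946 for SLC22A5. Higher calls made up 6409 of 12493 with TMM and 8223 of 12564 with library totals only, and 7857 were higher and 4687 lower with upper quartile scaling. The log2 differences of the 4 ratios kept their sign over 8 alternatives each. The shared replicate numbers were not taken as pairs. Deviations from the group means of same-numbered libraries correlated at 0.081, 0.013 and -0.026, which cannot exclude a pairing. The replicate block gave 12277 calls, against 12493, and log2 fold changes of 2.74 for CPT1C and -0.72 for CROT. Where OA replicate 1 stood alone, its spread was assumed to be that of vehicle. With upper quartile scaling and library totals only, 27 of the member levels in RPKM moved by more than their SD under TMM, and 1 did not. Levels near 1 RPKM rest on under 200 counts a library (CPT1C in vehicle), which limits their precision.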
